A study of Mus musculus with 6 samples.

Results

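The endothelin genes encode the peptide ligands endothelin 1, 2 and 3 (Edn1, Edn2, Edn3), the receptors A and B (Ednra, Ednrb) and the converting enzymes Ece1 and Ece2. Of the 7 genes listed by name, 6 were measured among 19938 genes, each through the probe set with 1 gene symbol and the highest mean. Ednra is not analysed here, because no probe set named for it alone was in the annotation used. The tissue was aorta of untreated wild-type C57BL/6 mice, taken at 13.5 days postcoitum, with 3 arrays for its ascending and 3 for its descending segment. The series set out to compare vessel wall of neural crest origin, which prevails in the ascending aorta, with wall of mesodermal origin in the descending aorta. The RNA came from dissected tissue rather than from sorted smooth muscle. Every array is labelled as a biological replicate. Which embryos or litters each came from, and whether tissue was pooled, is not given. Every p-value here therefore sets the difference between segments against the spread of these samples only. How much of that spread is technical is not known.

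Endothelins are made as long precursors that furin-type proteases cut to inactive big endothelins, and the converting enzymes then release the active peptides. Receptor A binds endothelin 1 and 2 far more tightly than endothelin 3, whereas receptor B binds all of them, and both act through heterotrimeric G proteins. In the mouse embryo, endothelin 1 from ectoderm, endoderm and endothelium acts on receptor A of neural crest cells, and loss of Edn1, Ednra or Ece1 leads to malformed pharyngeal arches and great arteries. Endothelin 3 and receptor B are best known for the crest lineages of pigment cells and enteric neurons, and receptor B is also found on endothelium.

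Edn3 and Ednrb were the members that varied most between arrays, and the stretch around their RefSeq start sites is shown for that reason. Edn1 is shown beside them as a ligand that varied less, though Edn2 varied least (range 0.25 against 0.63 for Edn1, in log2 units). Each window holds 300 bases, 250 before the start and 50 after it, in GRCm38.p6, 5′ to 3′ on the gene's own strand. Capitals mark matches on either strand to 4 motifs: AGATAA for GATA factors, ACAAAG for SOX factors, ACGTG for the hypoxia element core and TGANTCA for AP-1.
Edn3, chr2:174760369-174760668, + strand: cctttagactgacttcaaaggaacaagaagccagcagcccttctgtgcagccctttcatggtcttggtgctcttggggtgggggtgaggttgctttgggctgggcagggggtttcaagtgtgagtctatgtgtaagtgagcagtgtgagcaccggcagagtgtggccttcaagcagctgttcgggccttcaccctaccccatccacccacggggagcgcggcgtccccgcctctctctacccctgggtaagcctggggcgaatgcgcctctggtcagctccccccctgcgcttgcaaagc
Ednrb, chr14:103843652-103843951, - strand: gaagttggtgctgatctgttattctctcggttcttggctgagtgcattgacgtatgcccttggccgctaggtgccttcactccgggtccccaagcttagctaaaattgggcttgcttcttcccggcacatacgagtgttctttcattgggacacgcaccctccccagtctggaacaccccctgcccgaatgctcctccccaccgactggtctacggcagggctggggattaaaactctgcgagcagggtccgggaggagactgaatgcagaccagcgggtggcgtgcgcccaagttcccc
Edn1, chr13:42301226-42301525, + strand: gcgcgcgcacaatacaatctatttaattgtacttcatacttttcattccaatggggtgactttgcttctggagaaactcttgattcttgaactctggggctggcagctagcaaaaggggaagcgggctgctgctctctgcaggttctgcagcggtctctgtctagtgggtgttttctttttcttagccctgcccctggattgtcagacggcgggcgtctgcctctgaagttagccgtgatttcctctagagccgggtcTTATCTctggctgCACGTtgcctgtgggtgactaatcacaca
The Edn1 window held 1 match to AGATAA, at base 259, and 1 to ACGTG, at base 272 of the window. Neither the Edn3 nor the Ednrb window held any of the 4 motifs, which says only that these letters are not in these windows. The windows of Edn2 and Ednra, not shown, held none of them either. Their absence was thus seen in the members that varied most and in Edn2, which varied least. Ednra was not measured, so how far it varied is not known. ACGTG was also found in an Ece1 window and in the Ece2 window. Among 32851 RefSeq windows of this length, AGATAA was found in 11.2%, ACAAAG in 18.7%, ACGTG in 19.6% and TGANTCA in 7.81%, and no 2 of the marked matches overlap.

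No endothelin gene passed the test between the segments over all 6 arrays. Edn3 had the widest difference, with a mean 2.23-fold lower in ascending aorta, and Ednrb had a mean 1.56-fold lower, while Edn1, Edn2, Ece1 and Ece2 differed by less than 1.14-fold. Edn3 and Ednrb were low on ascending replicates 1 and 2, whereas ascending replicate 3 lay with the descending arrays. Over all genes 0 of 19938 passed an adjusted p of 0.05 in limma, or 0.0%, and the 0 of 6 endothelin genes is read against that. Before adjustment, 1852 genes had a p under 0.05 in limma, or 9.29%, of which 1062 (5.33%) were lower and 790 (3.96%) higher in ascending aorta, and 1 of the 6 endothelin genes, Edn3, was among the lower ones. The 3 ascending arrays lay wholly beyond the 3 descending arrays for 2955 genes, or 14.8%, and for 0 of the 6 endothelin genes. The median difference, ascending minus descending, was -0.0061 over the 6 members and -0.021 over all genes on the log2 scale.

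**Figure D1:**
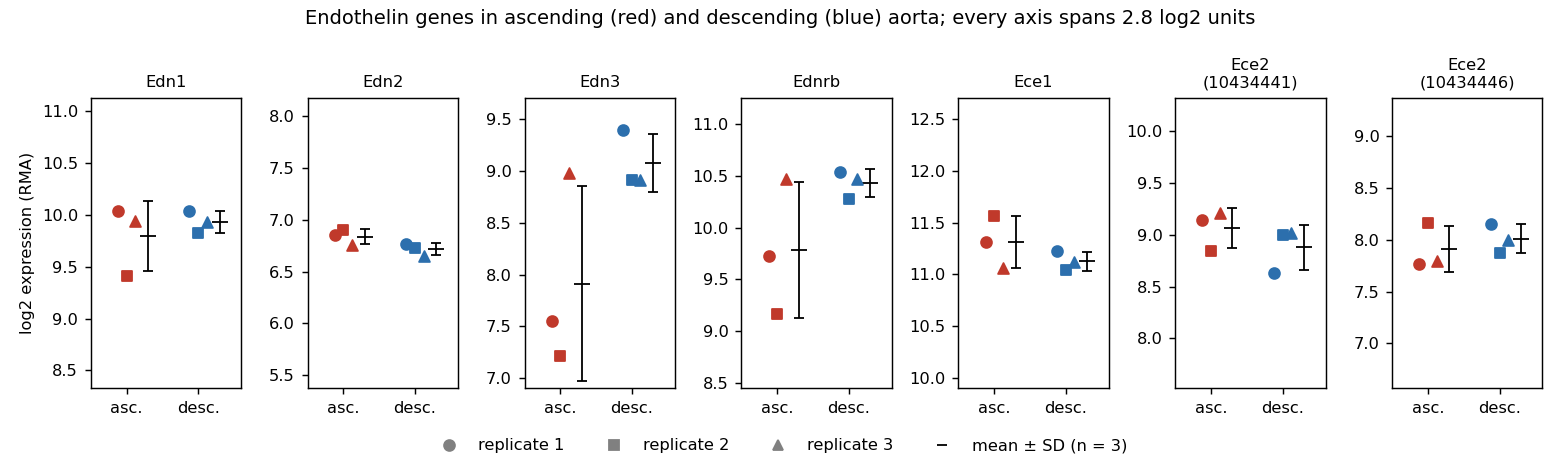
Log2 expression (RMA, vertical axes, each spanning the same number of log2 units) of the endothelin genes on each array, ascending in red and descending in blue, with symbols for the replicate number and black bars for mean ± SD of 3 arrays; Ece2 has a panel for each of its probe sets. Edn3 and Ednrb are low on ascending replicates 1 and 2 (7.55 and 7.21 for Edn3), while ascending replicate 3 lies at the level of the descending arrays (8.98).

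Of the ligands, Edn3 (probe set 10479165) gave 7.55, 7.21 and 8.98 on ascending replicates 1, 2 and 3, and 9.39, 8.91 and 8.91 on descending replicates 1, 2 and 3. Replicates 1 and 2 of the ascending aorta were the lowest, 2.88-fold and 3.63-fold below the descending mean, and replicate 3 lay between the descending arrays, so the groups overlap. The ascending mean was 7.91 ± 0.94 (SD, n = 3), against a descending mean of 9.07 ± 0.28 (SD, n = 3). The difference was -1.16 ± 0.42 (SE) on the log2 scale, with a 95% confidence interval from -2.13 to -0.19 and an adjusted p of 0.53 in limma. A larger difference in either direction was seen for 0.41% of all genes, and a smaller unadjusted p for 4.47%.

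Edn1, the main endothelin of endothelium and a strong vasoconstrictor, gave 10.04, 9.42 and 9.95 on the ascending arrays and 10.04, 9.83 and 9.93 on the descending arrays (probe set 10404783). Ascending replicate 2 was the lowest array, and the other 5 lay close together. The difference was -0.13 ± 0.16 (SE), with a 95% confidence interval from -0.51 to 0.25 (adjusted p = 0.80 by limma). Its sign rested on that 1 array, since without ascending replicate 2 it was 0.062, while leaving out ascending replicate 1 gave -0.25 and leaving out descending replicate 1 gave -0.078. Edn2, a ligand studied mainly in ovary and intestine, gave 6.85, 6.90 and 6.76 on the ascending arrays and 6.77, 6.73 and 6.65 on the descending arrays (probe set 10507692). These groups overlap by a small step, and the difference was 0.12 ± 0.078 (SE), with an interval from -0.064 to 0.30 (adjusted p = 0.64 by limma). As a guide to the dim end of the scale, 1194 olfactory and vomeronasal receptor genes, which a vessel is not known to use, had 95th percentiles between 6.15 and 6.37 on the 6 arrays. By their means over the arrays, 22 of these receptor genes lay above Edn2, 1 above Edn3 and 0 above any of the other measured endothelin genes, though probe sets differ in their own background.

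The receptor gene Ednrb (probe set 10422164) gave 9.72, 9.165 and 10.47 on ascending replicates 1, 2 and 3, and 10.54, 10.28 and 10.47 on the descending arrays. Ascending replicates 1 and 2 were again the lowest, 1.63-fold and 2.40-fold below the descending mean, and ascending replicate 3 lay inside the descending range. Mean levels were 9.79 ± 0.66 (SD, n = 3) for the ascending and 10.43 ± 0.13 (SD, n = 3) for the descending arrays. The difference was -0.64 ± 0.29 (SE), with a 95% confidence interval from -1.32 to 0.033 and an adjusted p of 0.54 in limma. Without ascending replicate 2, the lowest array, it was -0.33. A larger difference in either direction was seen for 1.81% of all genes, and a smaller unadjusted p for 10.95%. In whole tissue, fewer cells of a type and less RNA per cell cannot be told apart for any of these genes.

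Ece1, a converting enzyme gene, gave 11.31, 11.56 and 11.07 on the ascending arrays and 11.22, 11.04 and 11.12 on the descending arrays (probe set 10509441). Ascending replicates 1 and 2 were the highest, the reverse of Edn3 and Ednrb, and ascending replicate 3 lay among the descending arrays. The difference was 0.19 ± 0.13 (SE), with a 95% confidence interval from -0.12 to 0.49 (adjusted p = 0.65 by limma), and it was 0.061 without ascending replicate 2.

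Ece2, a related enzyme of neuroendocrine tissue that works at acidic pH, has 2 probe sets, and the one with the higher mean does not match the gene's own RefSeq transcripts. Probe set 10434441 is annotated with transcripts that RefSeq (GRCm38.p6) gives to the neighbouring methyltransferase gene Eef1akmt4 and to the readthrough gene Eef1akmt4-ece2. It gave 9.14, 8.85 and 9.21 on the ascending and 8.63, 8.995 and 9.01 on the descending arrays, a difference of 0.19 ± 0.14 (SE, adjusted p = 0.67 by limma). Without descending replicate 1, its lowest array, that difference was 0.062, and without ascending replicate 2 it was 0.30. Probe set 10434446, annotated with Ece2 transcripts and the readthrough, gave 7.77, 8.17 and 7.80 on the ascending and 8.16, 7.87 and 8.002 on the descending arrays. Its difference was -0.099 ± 0.14 (SE), with a 95% confidence interval from -0.42 to 0.23 (adjusted p = 0.85 by limma over all probe sets). The 2 probe sets thus differ in sign, neither passed, and the value given under the name Ece2 may be that of its neighbour.

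Leaving out 1 array changed the calls for Edn3 and Ednrb. Over all genes, which are no independent replicates, ascending replicate 3 resembled its own group less (mean Pearson's r of 0.988 to replicates 1 and 2) than the descending group (mean r of 0.996). Without this array Edn3 was lower in ascending aorta by 3.23-fold, at -1.69 ± 0.17 (SE, adjusted p = 0.0020 by limma). Ednrb was lower by 1.98-fold in the same comparison, at -0.99 ± 0.17 (SE, adjusted p = 0.016 by limma). In that comparison 933 genes passed, or 4.68%, of which 521 (2.61%) were lower and 412 (2.07%) higher in ascending aorta, beside 2 of the 6 endothelin genes. Ece1 did not pass, at 0.31 ± 0.11 (SE, adjusted p = 0.20 by limma), nor did Edn1, Edn2 and Ece2, with differences of -0.20, 0.16 and 0.11. Because the array left out stands out by its values, p-values of this comparison are likely too small.

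Without descending replicate 1 as well, to which limma's array weights gave 0.58 against 1.82 and 1.79 for the other descending arrays, Edn3 passed at -1.53 ± 0.13 (SE, adjusted p = 0.0081 by limma) and Ednrb did not, at -0.93 ± 0.19 (SE, adjusted p = 0.075 by limma). There 469 genes passed, or 2.35%, of which 236 (1.18%) were lower in ascending aorta. Both arrays left out were picked by their values, so p-values of this comparison too are likely too small. Ascending replicate 2, kept in that comparison, had the lowest weight of all, 0.57, and ascending replicate 3 had 0.63. Leaving out only ascending replicate 2 gave -0.81 for Edn3 (adjusted p = 0.72 by limma) and -0.33 for Ednrb (adjusted p = 0.74 by limma). On ascending replicates 1 and 2 together, Edn3 and Ednrb lay below all 3 descending arrays, as 18.9% of all genes did, and Edn2 and Ece1 lay above them, as 15.6% did; for either side together this is 4 of 6 members beside 34.5% of all genes. With the descending mean set to 0 and the mean of ascending replicates 1 and 2 set to 1, ascending replicate 3 stood at 0.056 for Edn3, at -0.042 for Ednrb, at -0.20 for Ece1 and at 0.27 for Edn2.

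**Figure D2:**
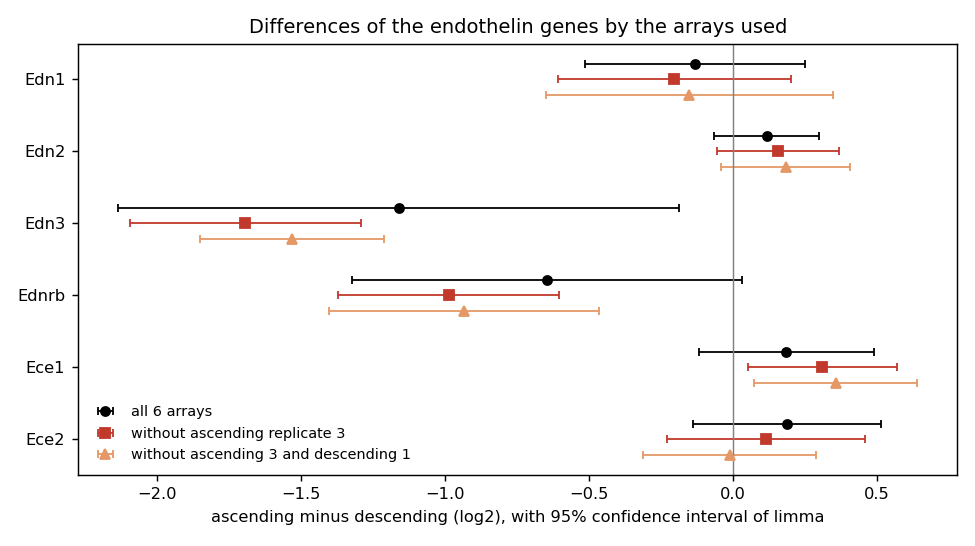
Difference, ascending minus descending on the log2 scale (horizontal axis), of each measured endothelin gene with its 95% confidence interval in limma, for all 6 arrays (black circles), without ascending replicate 3 (red squares) and without ascending replicate 3 and descending replicate 1 (orange triangles). The Edn3 point moves from -1.16 to -1.69 and -1.53, with narrower intervals, and the Ednrb point from -0.64 to -0.99 and -0.93.

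Edn3 and Ednrb were the only members whose values spanned at least 1 log2 unit over the 6 arrays, as 919 genes (4.61%) did. Among these 919 genes, likeness to a member was measured as the root-mean-square difference of the mean-centred log2 values over the 6 arrays, as a description without a test. The profiles most like Edn3 were those of Cd36, a fatty acid transporter and scavenger receptor, at 0.080, Nrip2 at 0.10 and Dab1, an adaptor of reelin signalling, at 0.11. Nearest to Ednrb were Enpp3, an ectonucleotide pyrophosphatase, at 0.056, Reps2 at 0.073 and the guidance ligand gene Sema3a at 0.075. Edn3 and Ednrb differed from each other by 0.35, since the gap to the descending arrays on ascending replicates 1 and 2 was wider for Edn3. Ednrb ranked number 118 in likeness to Edn3, and Edn3 ranked number 386 in likeness to Ednrb.

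Some lists of cell type markers differed on ascending replicates 1 and 2, as Edn3 and Ednrb did, and others did not. Set against the descending mean, smooth muscle medians were 0.083, -0.061 and -0.20 on ascending replicates 1, 2 and 3. Those of autonomic neurons were -0.20, 0.028 and -0.29, and those of macrophages -0.097, -0.73 and 0.21. Of the 10 smooth muscle markers, the actin gene Acta2 lay between 13.63 and 13.77 on the 6 arrays and Tagln between 12.04 and 12.62. The lowest was Lmod1, between 7.91 and 8.66, where array medians over all genes were 7.85 to 7.90. The smooth muscle median hides opposite directions on ascending replicates 1 and 2. There Myocd (10.58 and 10.82 against 10.07 to 10.30), Tagln and Lmod1 lay above every descending array. Myh11 (10.39 and 9.425 against 10.42 to 10.63), Mylk and Itga8 lay below every descending array. Endothelial markers were lower in ascending aorta by their means in 12 of 12 genes, and their summed level ran from 14.05 to 14.56 on the ascending and from 14.59 to 14.83 on the descending arrays, in log2 units. Set against the mean of the descending arrays, their median lay at -0.45, -0.45 and -0.15 on ascending replicates 1, 2 and 3. Edn1, which endothelium makes, stood at 0.11, -0.52 and 0.013 on the same scale. Markers of Schwann cells and glial precursors, which derive from the crest, were lower in 6 of 6 measured genes, with medians of -0.39, -0.81 and 0.086 and summed levels of 9.39 to 10.84 against 10.61 to 10.80. Their gene Cdh19 stayed between 4.43 and 5.63, below the 95th percentiles of the olfactory receptor genes.

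Fibroblast and mesenchyme markers were lower in 5 of 6 genes, with summed levels of 14.17 to 14.76 against 14.80 to 14.82. Macrophage markers were lower in 7 of 8, with 11.10 to 12.25 against 11.95 to 12.14. Autonomic neuron markers were lower in 5 of 6 measured genes, at 10.89 to 11.09 against 11.11 to 11.30. Mesothelial and epicardial markers were higher in 7 of 8, at 12.51 to 13.64 against 12.27 to 12.46, and cardiac muscle markers in 11 of 11, at 12.70 to 13.41 against 12.25 to 12.61. The melanoblast markers Dct and Tyr, which mark the pigment lineage that needs Edn3 and Ednrb, stayed at 5.43 to 5.69 and 4.68 to 5.05, below the 95th percentiles of the olfactory receptor genes, as did Tyrp1 at 5.85 to 6.09. Pmel at 6.29 to 6.65 and Mlana at 6.345 to 6.75 lay above the 95th percentile of the same array on every array, and the 5 melanoblast markers had summed levels of 8.26 to 8.44 against 8.37 to 8.40. Smooth muscle markers had summed levels of 14.85 to 15.13 against 14.95 to 15.01, and 6 of 10 were lower. With all 6 arrays 0 of these markers passed. Without ascending replicate 3, where 2.61% of all genes were called lower and 2.07% higher, the calls were 5 of 8 higher for mesothelium and epicardium, 2 of 11 higher for cardiac muscle, 1 of 10 higher for smooth muscle and 1 of 6 higher for autonomic neurons. In the same comparison 4 of 12 were lower for endothelium, 3 of 6 for fibroblasts and mesenchyme, 2 of 6 for Schwann cells and glial precursors and 2 of 8 for macrophages, while 0 of 5 melanoblast markers were called. The autonomic call was Elavl4, at 6.92 and 6.81 on ascending replicates 1 and 2. Its other arrays, at 5.83 to 6.01, lay below the 95th percentiles of the olfactory receptor genes. Cdh19, below them on every array, was among the Schwann cell calls. The other was Fabp7, well above them, at 8.72, 7.11 and 9.94 on ascending replicates 1, 2 and 3 and at 9.61 to 9.92 on the descending arrays. The part of these cell types in the values of Edn3, Ednrb and Ece1 was not tested.

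**Figure D3:**
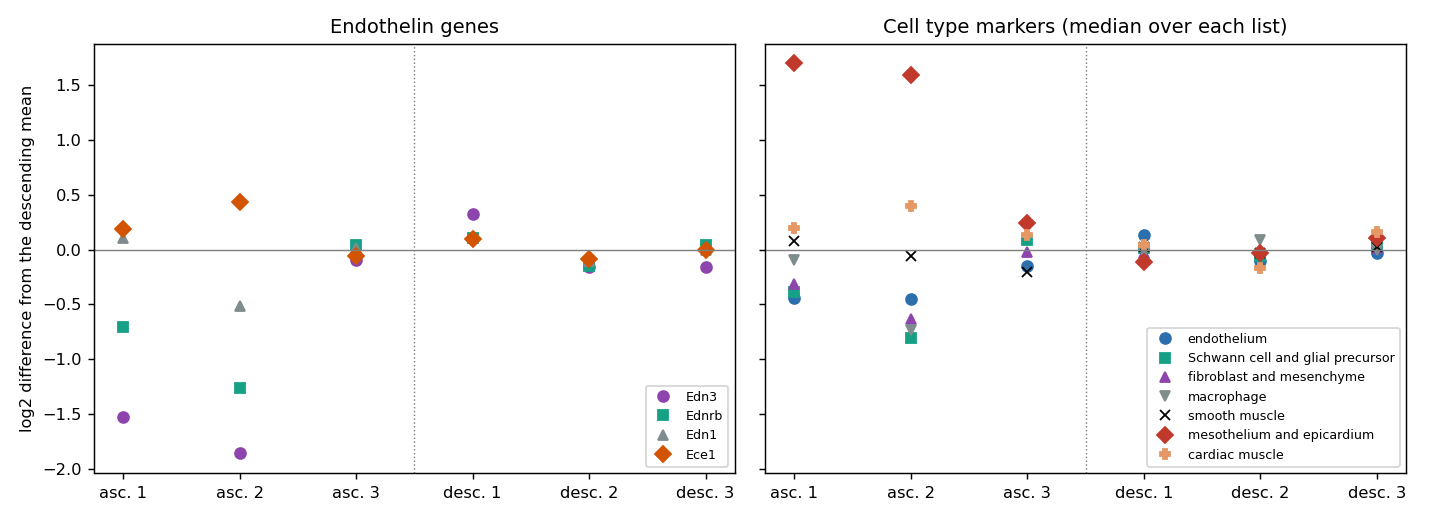
Log2 difference from the descending mean (vertical axis) on each array (horizontal axis) for Edn3, Ednrb, Edn1 and Ece1 (left) and for the median over each list of cell type markers (right), 1 point per array and gene or list. Ascending replicates 1 and 2 stand apart for some genes and lists, such as Edn3 at -1.52 and -1.86 and the mesothelial list at 1.70 and 1.59. Other genes and list medians, such as that of smooth muscle, do not share this, though single smooth muscle markers went either way. Ascending replicate 3 lies near 0 for Edn3 (-0.095).

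The other genes of the endothelin pathway were taken from 4 lists by role, with 42 of 44 genes measured. Over all 6 arrays 0 of 42 passed in limma, where 0.0% of all genes did, and 9 had an unadjusted p under 0.05, beside 9.29% of all genes. Their median difference was -0.088, against -0.021 over all genes. For 8 of the 42 the groups did not overlap, where 14.8% of all genes did so. Without ascending replicate 3, 8 of 42 passed, 4 higher and 4 lower in ascending aorta, beside 4.68% of all genes.

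Signal transducers of the receptors (G protein alpha subunits, phospholipase C beta, protein kinase C, inositol trisphosphate receptors and beta-arrestins) differed little, with a median of -0.063 over 18 genes, 5 higher and 13 lower by their means. Those with the smallest p were Itpr3, a calcium release channel, at -0.22 ± 0.090, Arrb1, the beta-arrestin 1 gene, at -0.31 ± 0.14, Plcb1 at 0.18 ± 0.11 and Itpr2 at -0.16 ± 0.12 (SE). Without ascending replicate 2 Plcb1 stood at 0.071 and Itpr2 at -0.25, and Itpr2 stood at -0.055 without ascending replicate 3 and at -0.092 without descending replicate 1. Gnaq and Gna11, whose products couple both receptors to phospholipase C, differed by -0.057 and -0.060 and were chosen here for that role after their values were seen. Without ascending replicate 3 Arrb1 was lower, at -0.48 ± 0.088 (SE, adjusted p = 0.022 by limma).

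Genes that need Ednra signalling in arch neural crest had a median of 0.16 over 7 genes, 5 higher and 2 lower by their means. Hand2, a basic helix-loop-helix factor of arch crest, outflow tract and heart, gave 10.01, 10.71 and 8.58 on ascending replicates 1, 2 and 3 and 8.66, 8.44 and 8.49 on the descending arrays. It was high on the arrays where Edn3 was low, with a difference of 1.24 ± 0.46 (SE, adjusted p = 0.53 by limma), and 1.83 ± 0.19 without ascending replicate 3 (adjusted p = 0.0021 by limma). Without ascending replicate 2, its highest array, the Hand2 difference was 0.77. Dlx6, a homeobox gene of the lower jaw program, differed by 0.41 ± 0.19, and by 0.64 ± 0.10 without ascending replicate 3 (SE, adjusted p = 0.013 by limma). Its neighbour Dlx5 differed by 0.16 ± 0.091 and Mef2c, a MADS-box factor, by -0.40 ± 0.12 (SE), the latter with groups that did not overlap, and Dlx5 stood at 0.090 without descending replicate 2. Hand1, named after its values were seen, was the other member called without ascending replicate 3, at 1.04 ± 0.19 (SE, adjusted p = 0.024 by limma). Hand2 and Hand1 are also genes of the heart. Of the 11 cardiac markers, 2, Tnnt2 and Tnni1, were called higher without ascending replicate 3. Others did not share this pattern, such as Myl7, at 9.36, 9.58 and 9.93 on ascending replicates 1, 2 and 3. The part of cardiac tissue was not tested.

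Peptidases related to the converting enzymes, and proteases that process precursors, had a median of -0.12 over 9 genes, 2 higher and 7 lower by their means. Phex, a relative of Ece1 known from bone and tooth, gave 7.88, 6.06 and 8.95 on the ascending and 9.16, 9.14 and 9.12 on the descending arrays. All ascending arrays lay below the descending ones, and the difference was -1.51 ± 0.62 (SE, adjusted p = 0.53 by limma), or -2.17 ± 0.43 without ascending replicate 3 (SE, adjusted p = 0.029 by limma). Ascending replicate 2 was the lowest array, and without it the difference was -0.73. Ecel1, a relative expressed in neurons, went the other way, with 9.37, 8.86 and 7.90 against 7.94, 8.02 and 7.87. Its difference was 0.77 ± 0.32 (SE), 1.17 ± 0.15 without ascending replicate 3 (SE, adjusted p = 0.0054 by limma) and 0.44 without ascending replicate 1. Mme, the neprilysin gene whose product degrades endothelins among other peptides, differed by -0.61 ± 0.30, and the convertase gene Pcsk5 by -0.28 ± 0.11 (SE). The Mme difference was -0.24 without ascending replicate 2, and that of Pcsk5 was -0.17 without descending replicate 1. Furin, chosen after its values were seen because its product cuts the endothelin precursors, differed by 0.032.

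Crest genes that act in the same lineages as Ednrb had a median of -0.25 over 8 measured genes, 1 higher and 7 lower by their means. Kit, the receptor kinase of pigment cell precursors that is also found on other cells, gave 8.59, 8.29 and 9.003 on the ascending and 9.36, 9.08 and 9.08 on the descending arrays, so that all ascending arrays lay lower. Its difference was -0.54 ± 0.18 (SE, adjusted p = 0.53 by limma), and -0.73 ± 0.13 without ascending replicate 3 (SE, adjusted p = 0.021 by limma). Zeb2, a zinc finger repressor of crest and mesenchyme, differed by -0.41 ± 0.14, and by -0.56 ± 0.10 without ascending replicate 3 (SE, adjusted p = 0.021 by limma). Ret, the GDNF receptor of enteric precursors, differed by -0.27 ± 0.11 and Sox10, a defining factor of crest glia and pigment cells, by -0.35 ± 0.16 (SE). Sox10 gave 7.41, 7.06 and 7.73 on the ascending and 7.86, 7.68 and 7.71 on the descending arrays, low on the arrays where Ednrb was low. Its difference was -0.18 without ascending replicate 2, and it did not pass without ascending replicate 3 either (adjusted p = 0.066 by limma). Whether the lists differed from each other was not tested.

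**Figure D4:**
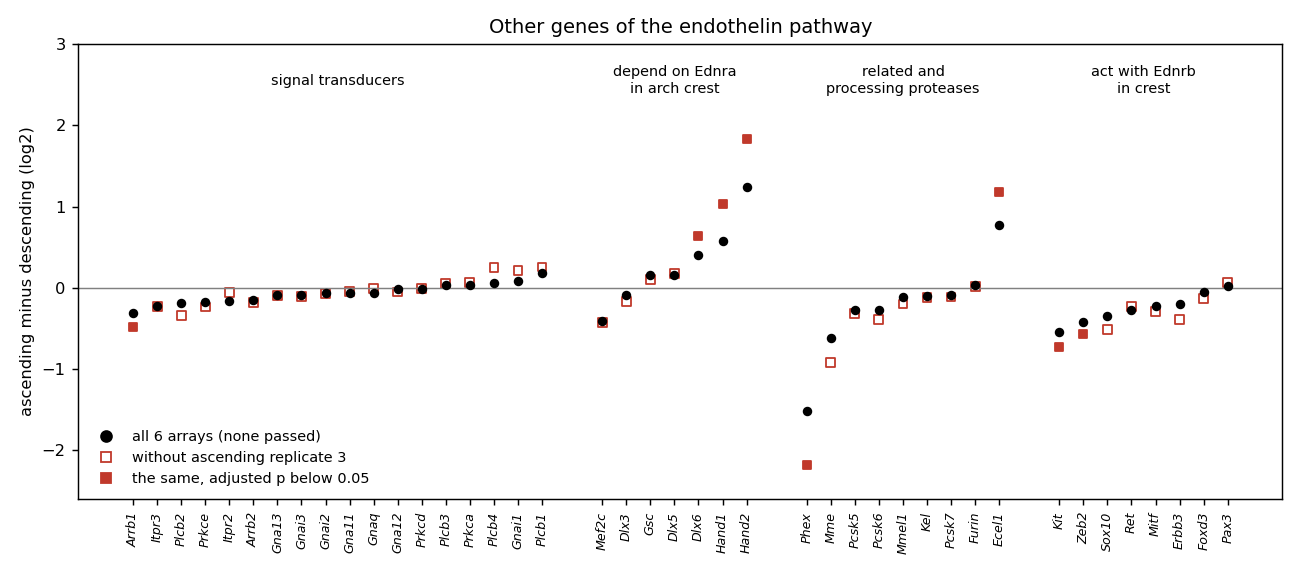
Difference, ascending minus descending on the log2 scale (vertical axis), of 42 other genes of the endothelin pathway (horizontal axis, grouped by role), over all 6 arrays (black circles) and without ascending replicate 3 (red squares, filled where the adjusted p in limma was below 0.05). No black point passed; 8 red squares are filled, from Phex at -2.17 to Hand2 at 1.83.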

How the data were processed

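Total RNA extracted with Trizol from each aortic segment was hybridised as biotinylated cRNA to Affymetrix mouse arrays, per the labels' protocols. The values deposited by the authors are log2 expression of 35556 probe sets. Per the submitters' processing notes they were made with RMA and Partek 6.6. Settings and genome build were not given in the sources used here. RMA makes the arrays' distributions alike, which hides a shift common to most genes, and it shrinks differences of dim genes. Array medians over all 35556 probe sets lay between 7.14 and 7.22, and having only 3 arrays per segment limits the precision.

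Probe sets were named from the platform's annotation. Of them 21789 had 1 symbol, 1621 several and 12146 none, and for 999 genes with more than 1 probe set the one with the highest mean was kept. Segments were compared over 19938 genes with lmFit and eBayes of limma 3.58.1 (R 4.3.3), two-sided, ascending minus descending, without covariates, with p-values adjusted by Benjamini-Hochberg across the 19938 genes and called at 0.05. Exact permutation of 3 against 3 arrays reaches no p below 0.1 and was not used. The fit was tested on simulated data in which no array stood apart from its group. That test does not bear on the comparisons that leave out arrays. Promoter windows come from RefSeq GRCm38.p6, matched by symbol for all 7 genes listed.

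The text names all measured members, up to 4 genes of each pathway list with the smallest p, and the 3 profiles most like each member with a range of at least 1. The members and lists were chosen with earlier results of these data known. Alternatives were repeated quantile normalization, median-centring, a filter at the 25th percentile, other uses of the probe sets, a robust variance trend, the replicate number as a block, array weights, and leaving out arrays. Tables were made in pandas 2.3.3 and plots in matplotlib 3.10.9 (Python 3.11.15).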

Additional observations from a re-analysis of the deposited data

How the results depend on the processing

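Every alternative that kept all 6 arrays called 0 genes, 0 endothelin members and 0 pathway genes. Leaving out 1 array at a time gave 0 to 933 genes, 0 to 2 members and 0 to 8 pathway genes, with every call made without ascending replicate 3. Leaving out ascending replicate 3 and descending replicate 1 together gave 469 genes, 1 member and 3 pathway genes. In the comparisons that left out 1 array, the difference ranged from -1.69 to -0.81 for Edn3, from -0.99 to -0.33 for Ednrb, from -0.25 to 0.062 for Edn1 and from 0.062 to 0.30 for Ece2. Without ascending replicate 3 and descending replicate 1 Edn3 stood at -1.53 and Ece2 at -0.010. Itpr2 turned to 0.016 there. The other Ece2 probe set, tried after the data were seen, gave -0.099. Edn3 and Ednrb were lower and Edn2 and Ece1 higher in ascending aorta under every alternative listed, and their adjusted p ran from 0.0020 to 0.84 for Edn3 and from 0.016 to 0.84 for Ednrb. The cause of these changes was not tested beyond the arrays left out.

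The labels do not say whether the replicate numbers pair the arrays. The deviations of same-numbered arrays from their segment means correlated across genes at -0.080, -0.055 and 0.024. This cannot decide the pairing, because deviations from a mean of 3 arrays depend on one another. With the number as a block, 0 genes and 0 members passed, and Edn3 and Ednrb had an adjusted p of 0.60 each in limma.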
